A study of Mus musculus with 7 samples.

Results

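The libraries described here came from the left ventricle of control mouse embryos, taken at E12.5 (days of embryonic development), a chamber that at this stage pumps blood through the embryo while its wall is still being built. All 5 control samples were used, out of 7 samples in the series, and the 2 mutant samples were not analysed here. The controls carried Gt(ROSA)26Sortm1(cre/ERT2)Tyj, a tamoxifen-inducible Cre recombinase placed at the widely active Rosa26 locus, together with Tbx5+/+, that is, 2 unaltered copies of the T-box factor gene Tbx5. Their mothers received tamoxifen by intraperitoneal injection at E11.5, so all of them had both the Cre allele and the drug, and no library without these was used. The left ventricle was microdissected and its polyadenylated RNA was sequenced in single reads of 50 bases. The libraries are numbered 1 to 5 after their control replicate number. Nothing in the labels says whether a library is 1 embryo or a pool, or whether the embryos came from separate litters, so the standard deviations (SD, n = 5 libraries throughout) cover the spread among these 5 libraries and nothing wider.

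The wall of the embryonic ventricle has an outer compact layer of dividing cardiomyocytes and an inner layer of muscular ridges, the trabeculae, which express natriuretic peptide and fast-conducting connexin. The wall is lined on the inside by endocardium, a specialised endothelium, and covered on the outside by epicardium, a mesothelium that sends mesenchymal cells into it. The sarcomere, the contractile unit, is built of thick filaments of myosin heavy and light chains and thin filaments of actin, tropomyosin and the 3 troponins. Several of these proteins are encoded by paired genes, of which one is typical of the ventricle and the other of the atrium, or one of the fetal and the other of the adult heart. The blood of this stage still holds nucleated primitive red cells with embryonic globins, alongside the first definitive red cells from the liver.

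The 5 libraries held between 20385656 and 24440806 counts over 23337 gene symbols. At least 1 count in every library was found for 15958 genes, and 12889 genes reached 1 on the counts-per-million (CPM) scale in all 5, while 4652 had no count in any. No mitochondrially encoded gene was in the table, and replication-dependent histones, whose mRNAs lack a poly(A) tail, summed to only 41.7 to 51.1 CPM. Levels of single genes are compared with each other on the transcripts-per-million (TPM) scale, computed from the counts and the merged exon length of each gene, except in the ranking named as without length scaling. Comparisons of 1 gene between libraries use CPM. Sums and shares of gene lists are in counts, so they depend on how many genes a list holds and on their lengths, and are compared only between libraries. Library 5 stood apart from the others: the leading principal component of log2 CPM held 43.1% of the variance and separated it from libraries 1 to 4. The second component, with 25.5%, separated library 4 from library 3. In bulk tissue, fewer cells of a type and less of its RNA per cell cannot be told apart.

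The gene named in the labelled genotype was looked at first, although counts summed over a gene cannot tell its alleles apart and so do not check the genotype. Tbx5, at chromosome 5, 119832668 to 119885219 (GRCm38, GENCODE M21, used for all gene positions here), was present in every library, at 66.5, 81.1, 97.1, 63.6 and 75.3 CPM in libraries 1 to 5. Library 3 had the highest level and library 4 the lowest, and the mean of 41.6 ± 6.81 TPM placed it second among the T-box genes, after Tbx20.

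Promoter sequences are shown for 3 genes whose transcripts define the composition described here, the peptide hormone Nppa and the adjacent myosin heavy chain genes Myh6 and Myh7. Each is given 5′ to 3′ on the strand of its gene, from 220 bases before to 20 bases after a start annotated by RefSeq (GRCm38.p6). Capitals mark the 6 letters TATAAA, the usual form of the TATA element, searched on both strands.
Nppa, chr4:148000502-148000741, plus strand: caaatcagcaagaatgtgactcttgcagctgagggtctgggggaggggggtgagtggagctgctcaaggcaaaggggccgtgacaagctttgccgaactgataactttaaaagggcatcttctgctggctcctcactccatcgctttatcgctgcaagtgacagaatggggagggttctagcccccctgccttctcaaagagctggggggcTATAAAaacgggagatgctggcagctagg
Myh6, chr14:54966588-54966827, minus strand: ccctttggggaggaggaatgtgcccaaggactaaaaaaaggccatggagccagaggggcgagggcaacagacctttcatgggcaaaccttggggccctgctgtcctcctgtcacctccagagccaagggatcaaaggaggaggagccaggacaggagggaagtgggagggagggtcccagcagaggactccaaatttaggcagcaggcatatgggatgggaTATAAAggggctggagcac
Myh7, the second of its 2 annotated starts, chr14:54994530-54994769, minus strand: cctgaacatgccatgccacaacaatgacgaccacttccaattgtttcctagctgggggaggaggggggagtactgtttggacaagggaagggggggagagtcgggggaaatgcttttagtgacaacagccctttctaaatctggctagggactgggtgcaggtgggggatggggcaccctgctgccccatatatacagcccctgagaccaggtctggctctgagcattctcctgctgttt

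The motif began 9 bases before the annotated start in Nppa and 1 base after it in Myh6, and these letters were not in the windows of either Myh7 start. On one strand or the other, TATAAA was found in the 300 bases around a start of 4234 of 27025 genes with a promoter in the RefSeq table (15.7%). It was in 9 of the 38 sarcomere genes that had a promoter there (23.7%) and in 11 of the 69 of the 100 most abundant genes that had one (15.9%). The 6 marker genes, too few for a share to be read, held it in 4 cases. On the sense strand within 50 bases before a start, the corresponding shares were 3.15% of all genes, 3 of 38 sarcomere genes, 4 of 69 abundant genes and 2 of 6 markers. A match describes letters only.

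The 6 marker genes used to define the tissue were abundant in every library. Myh7, the slow beta-myosin heavy chain and the major ventricular motor of the embryo, lies at chromosome 14, 54970684 to 54994626 and was counted at 7945, 8701, 7622, 10156 and 10084 CPM in libraries 1 to 5. Myl2, the ventricular regulatory light chain (chromosome 5, 122100951 to 122113472), was at 9274, 8800.0, 8751, 10688 and 7474 CPM. Both were highest in library 4, and Myl2 was lowest in library 5 where Myh7 was nearly as high as in library 4.

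Actc1, the cardiac actin of the thin filament (chromosome 2, 114047282 to 114053548), was at 10897, 11869, 11774, 11333 and 11320.4 CPM, a coefficient of variation (CV) of only 3.43%. Tnnt2, which anchors troponin to tropomyosin (chromosome 1, 135836354 to 135852260), was at 3427, 3921, 3476, 3829 and 4171 CPM, with its lowest values in libraries 1 and 3. These 2 thin filament genes thus varied less among libraries than the heavy chain, whose CV was 13.3%.

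Nppa, the atrial natriuretic peptide, made by trabecular as well as atrial muscle at this stage (chromosome 4, 148000722 to 148002079), was at 1832, 1471, 1869, 1330.0 and 2400.3 CPM, and its neighbour Nppb, the B-type peptide (chromosome 4, 147985788 to 147987205), at 159.9, 165, 172, 149 and 138 CPM. The order of libraries differed between the neighbours. Library 5 had the highest Nppa and the lowest Nppb, and the ratio of Nppa to Nppb in TPM ran from 8.04 to 15.8. Per length, Nppa stood at 4411 ± 1066 TPM and Nppb at 429 ± 31.7 TPM. The 6 markers together took 3.35% to 3.75% of all counts.

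**Figure D1:**
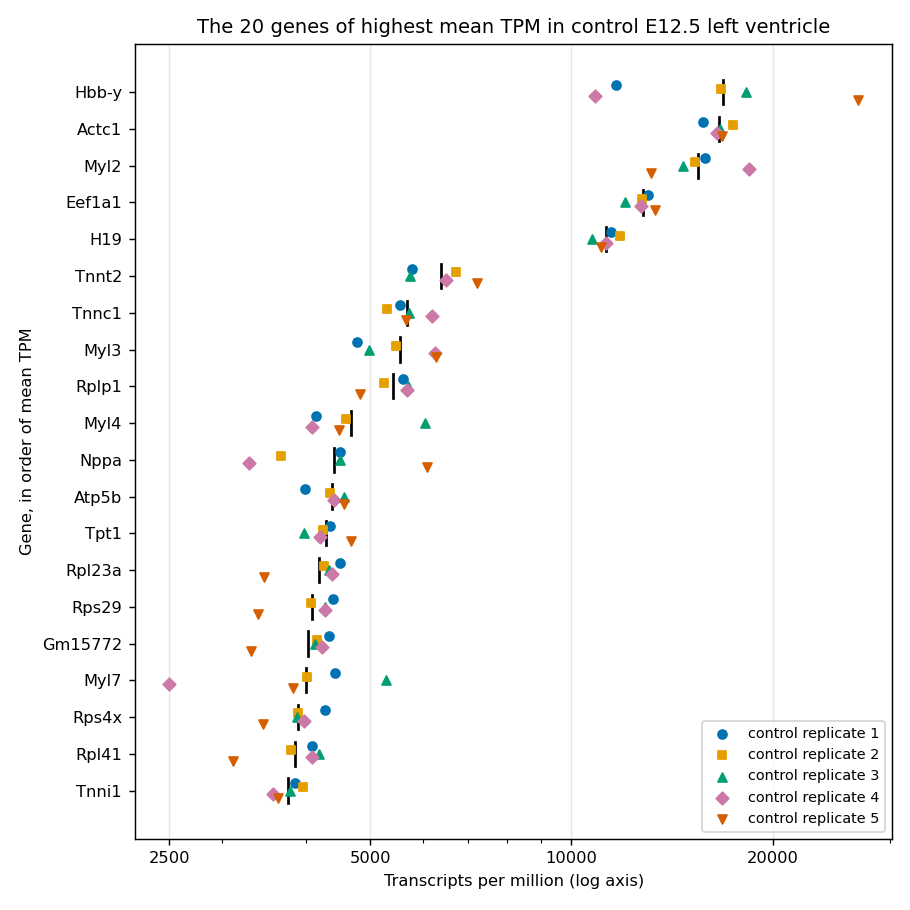
Level of the 20 genes of highest mean TPM in each of the 5 control libraries; each symbol is 1 library, the black bar is the mean of the 5, and the TPM axis is logarithmic. Hbb-y, Nppa and Myl7 have the widest horizontal spread, whereas Actc1, Eef1a1 and H19 lie close together.

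Ranked by TPM, the transcriptome was headed by an embryonic globin and the contractile apparatus. Hbb-y, the beta-type globin of primitive red cells, had the highest mean at 16862 ± 6422 TPM, followed by Actc1 at 16628 ± 613, Myl2 at 15490.4 ± 1934, the translation elongation factor Eef1a1 at 12776 ± 492 and the imprinted noncoding RNA H19 at 11271 ± 394. The first 3 were not separated: Hbb-y exceeded Actc1 in 2 of the 5 libraries and Actc1 exceeded Myl2 in 3 of 5. Without library 5 the mean of Hbb-y fell to 14366 TPM, below the 16582 of Actc1 and the 16075 of Myl2. Without library 3 Actc1 was also first, at 16618 against 16518 TPM. Eef1a1 and H19 did not overlap, and H19 did not overlap Tnnt2, the sixth gene at 6390.2 ± 637 TPM.

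Of the 20 most abundant genes, 8 were sarcomeric: Actc1, Myl2, Tnnt2, Tnnc1 at 5678 ± 324, Myl3 at 5544 ± 696, Myl4 at 4676 ± 796, Myl7 at 4010.0 ± 1011 and Tnni1 at 3765 ± 158 TPM. Another 5 encoded ribosomal proteins (Rplp1, Rpl23a, Rps29, Rps4x and Rpl41), and the predicted gene Gm15772 had the same counts as the ribosomal protein gene Rpl26 in all 5 libraries, so the reads of these 2 cannot be told apart. Nppa, Atp5b, the catalytic beta subunit of mitochondrial ATP synthase, and Tpt1, a translationally controlled growth protein, completed the group. From Tnnt2 downwards, each gene's range over the libraries overlapped that of the next. Among the first 100 genes, 46 encoded ribosomal proteins, 11 sarcomere proteins, 9 subunits of the respiratory chain or ATP synthase and 6 glycolytic enzymes.

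Without scaling for length, 9 of these 20 genes remained among the first 20. On that scale H19 was first, at 12303, 12471, 11781, 12026 and 11582 CPM in libraries 1 to 5, with Actc1 at a mean of 11439 and Eef1a1 at 10702 CPM next. Long transcripts then moved up: Myh7 had a mean of 8902 CPM but only 3024 ± 442 TPM, the 32nd level per length. Igf2, the fetal growth factor next to H19, was at 4710.0, 5600.3, 4927, 4847 and 5373 CPM, and per length H19 exceeded it 5.45 ± 0.426-fold. Rn45s, the ribosomal RNA precursor, also reached 3518, 4969, 5065, 4657 and 3957 CPM despite the poly(A) selection. The 10 most abundant genes together took between 7.01% and 7.67% of counts, and it took 760 to 812 genes to reach 50% of counts.

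Shares of counts were also taken by function. The 47 sarcomere genes held 6.26% to 6.88% of counts, the 85 cytosolic ribosomal protein genes 6.21% to 7.45%, the 76 nuclear genes of oxidative phosphorylation 2.74% to 3.33% and the 24 genes of glycolysis 2.05% to 2.23%. The 46 enzymes that oxidise fatty acids or run the citric acid cycle took 1.59% to 1.75%, collagens and other matrix genes 1.04% to 1.29%, and 40 cell cycle genes 0.7104% to 0.795%. All 40 cell cycle genes were at 1 TPM or more in every library, led by Pcna, the DNA polymerase clamp, at 489 ± 63.9 TPM, with the D cyclin Ccnd3 at 393 ± 29.3, the chromatin protein Hmgb2 at 375 ± 27.5 and the topoisomerase Top2a at 285 ± 20.2. The sarcomere share was lowest in library 1 and highest in library 4, and the shares of ribosomal proteins and of oxidative phosphorylation were both lowest in library 5.

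Several sarcomere families were dominated by 1 member and others were mixtures. Myh7 made up 81.04% ± 6.92 of the TPM of striated and smooth muscle myosin heavy chains. In libraries 1 to 5 its share was 83.6, 76.1, 71.8, 88.7 and 84.96 percent. Almost all the rest was Myh6, the alpha heavy chain of the atrium and of the adult mouse ventricle, at 1454, 2588, 2837, 1160.0 and 1672 CPM. The ratio of Myh7 to Myh6 was 5.29, 3.26, 2.60, 8.48 and 5.84, so that it was above 1 in every library but varied more than 3-fold between libraries 3 and 4. Myh7b, a slow heavy chain that hosts a microRNA, was at 19.7 ± 5.49 TPM, and nonmuscle Myh10 and Myh9 were at 160.5 ± 14.4 and 81.1 ± 6.15 TPM.

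Among regulatory light chains, ventricular Myl2 held 67.3% ± 5.07 of the family, atrial Myl7 17.5% ± 4.41 and smooth muscle and nonmuscle Myl9 13.1% ± 1.23. Myl7 itself was at 1228, 1096, 1493, 688 and 1032 CPM, lowest in library 4 and highest in library 3. Among essential light chains, ventricular Myl3 held 47.8% ± 5.63 and Myl4, the chain of the atrium and the fetal ventricle, 40.1% ± 4.85. The order of this last pair was not fixed: Myl3 was above Myl4 in 4 libraries, and in library 3 the ratio was 0.823. The shares of Myh7, Myl2 and Myl3 were all lowest in library 3 and highest in library 4. Leaving out each library in turn kept the mean share of Myh7 between 79.1% and 83.3%, and that of Myl2 between 65.4% and 68.8%.

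**Figure D2:**
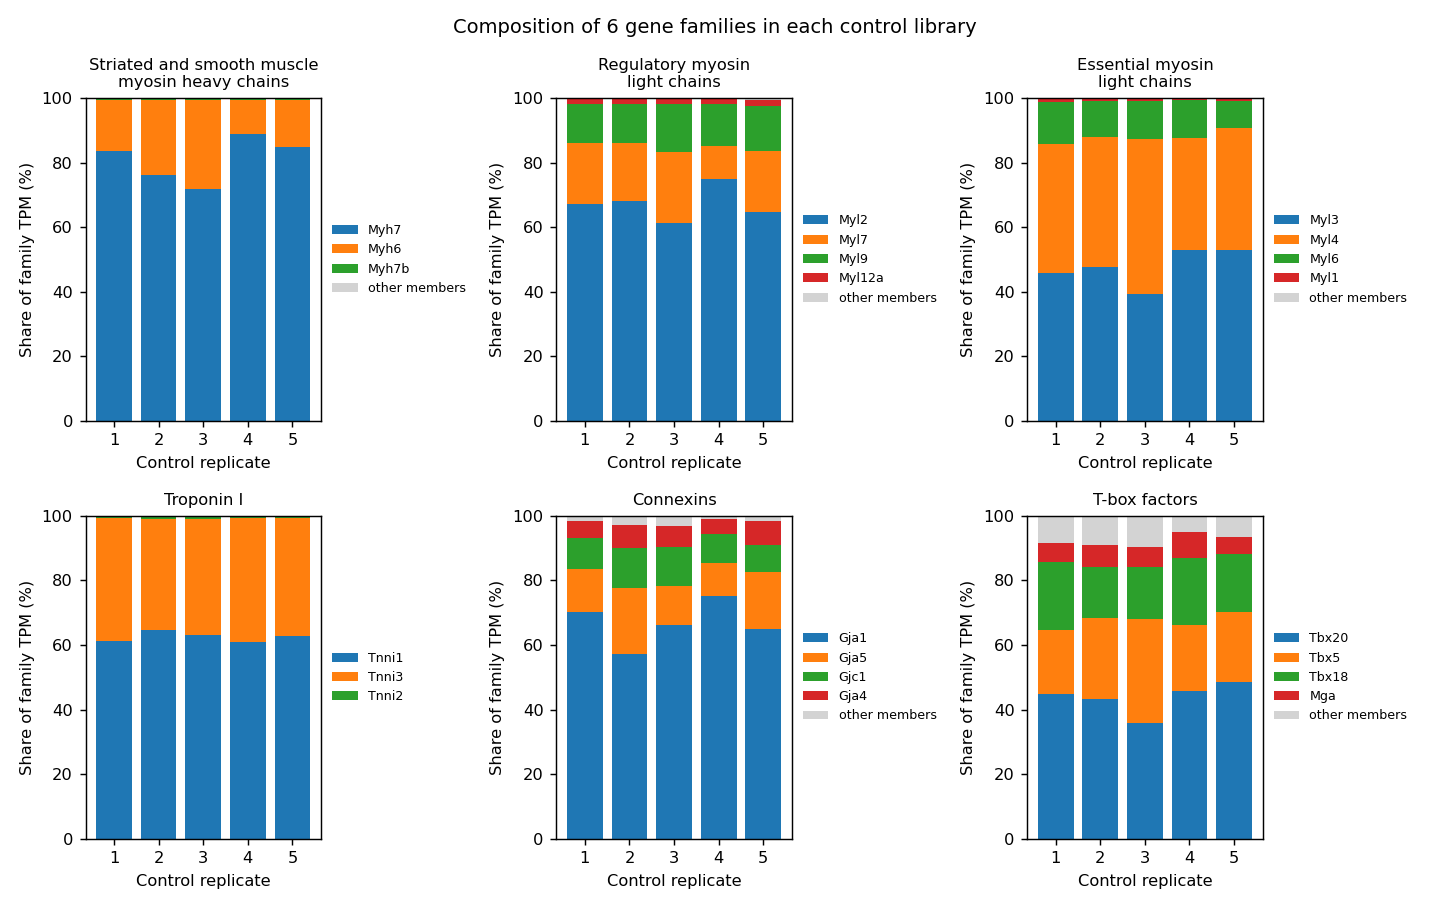
Share of each member in the summed TPM of its family (percent, vertical axis) in control libraries 1 to 5 (horizontal axis), for 6 families; colours are genes, and members beyond the 4 largest or under 0.5% are pooled in grey. The atrial-type members Myh6, Myl7 and Myl4 take their largest shares in library 3, whereas the division of troponin I is nearly the same in all 5.

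On the thin filament, Actc1 accounted for 79.6% ± 1.79 of actin TPM. Actg1, a cytoplasmic actin, held 7.83% ± 0.256, the smooth muscle actin Acta2 6.06% ± 1.69 and the cytoplasmic Actb 5.71% ± 0.246, with Acta2 above Actb in 3 of 5 libraries. The cytoplasmic actins hardly varied, with CVs of 1.44% and 2.67% in CPM. Acta2, which embryonic cardiomyocytes also make, was much less even, at 1337, 723, 1179, 1648 and 1130.0 CPM with the lowest level in library 2. Acta1, the skeletal actin, contributed 0.804% ± 0.167 of actin TPM.

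The troponins showed the fetal pattern of a slow skeletal inhibitory subunit. Tnni1, the slow skeletal form, was at 3765 ± 158 TPM and Tnni3, the cardiac form that replaces it in the adult, at 2203 ± 121. Tnni1 exceeded Tnni3 in all 5 libraries, by 1.71 ± 0.118-fold. Of troponin T, 86.3% ± 1.84 was cardiac Tnnt2 and 13.6% ± 1.85 slow skeletal Tnnt1, and nearly all troponin C was Tnnc1. Tpm1 provided 71.5% ± 1.55 of tropomyosin, with Tpm4 next at 18.7% ± 1.21, and Mybpc3 99.7% ± 0.0341 of myosin binding protein C. Compared with the myosin pairs, the division between the 2 troponin I genes moved little, from 61.02% to 64.7%.

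Calcium cycling genes were mostly of the cardiac isoforms, with 1 exception. Atp2a2, the pump that refills the sarcoplasmic reticulum, made up 99.3% ± 0.0953 of its family and stood at 497 ± 57.6 TPM. Its inhibitor Pln was higher per length at 896 ± 138 TPM, whereas the atrial inhibitor Sln reached 15.7 ± 6.18 TPM. Ryr2, the calcium release channel, held 94.6% ± 2.66 of its family. The exception was calsequestrin, the calcium store protein: Casq1, the skeletal form, held 34.9% ± 8.27 beside the cardiac Casq2. Casq1 was at 151, 134, 182, 104 and 214 CPM and Casq2 at 486, 337, 290.1, 446 and 493 CPM, and both were highest in library 5.

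All 33 genes of the calcium handling list were at 1 TPM or more in every library. Slc8a1, the sodium-calcium exchanger, was at 99.5 ± 15.96 TPM. Of the pore subunits of voltage-gated calcium channels, T-type Cacna1h held 44.1% ± 4.98, L-type Cacna1c 26.6% ± 5.58, T-type Cacna1g 12.1% ± 3.04 and L-type Cacna1d 11.6% ± 2.05. Cacna1h exceeded Cacna1c in all 5 libraries per length, while Cacna1g and Cacna1d could not be ordered. Hcn4, the pacemaker channel of the sinus node and of the early heart tube, was the main member of its family (87.4% ± 4.43) at a low 6.27 ± 2.59 TPM.

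Gap junctions were mostly of Gja1, the connexin of working myocardium and mesenchyme, with 66.7% ± 6.61 of connexin TPM. Gja5, the connexin of trabeculae, conduction system and arteries, held 14.7% ± 4.17, and Gjc1 10.3% ± 1.83. Gja5 was at 141, 155, 85.9, 109.9 and 207 CPM and varied more among libraries than Gjc1, with CVs of 33.1% and 6.06%.

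Metabolic families mixed the forms of the embryo with those of mature muscle. Lactate dehydrogenase was 72.04% ± 1.29 Ldha, the form of glycolytic tissue, and glucose transport 78.6% ± 0.987 Slc2a1, with the insulin-responsive Slc2a4 at 26.1 ± 1.14 TPM. Hk1 was 79.8% ± 2.36 of hexokinase. Enolase was divided between ubiquitous Eno1 (53.05% ± 4.78) and muscle Eno3 (46.6% ± 4.72), and creatine kinase between brain-type Ckb (58.3% ± 7.82) and muscle-type Ckm (38.2% ± 8.28). In both of the last families the larger member led in 4 of 5 libraries only, so neither order held throughout. Ckm, at 274, 131, 116, 199.7 and 202 CPM, was the more variable of the creatine kinases.

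Mitochondrial families followed the same mixed pattern. Muscle Slc25a4 exceeded ubiquitous Slc25a5, both exchangers of ADP for ATP, in every library (58.6% ± 1.30 against 41.3% ± 1.30). For cytochrome oxidase, the ubiquitous forms led, with Cox6a1 at 71.2% ± 3.49, Cox7a2 at 65.9% ± 3.54 and Cox8a at 91.3% ± 2.01, and their muscle partners Cox6a2, Cox7a1 and Cox8b at 465 ± 67.1, 184 ± 28.5 and 141 ± 34.2 TPM. Among fatty acid carriers, heart-type Fabp3 held 57.2% ± 3.34 and Fabp5 33.1% ± 0.636. Fabp4, the carrier of capillary endothelium, was at 149.8, 77.97, 43.3, 84.03 and 76.8 CPM, highest in library 1 and lowest in library 3.

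Of the 72 listed cardiac transcription factor genes, 68 were at 1 TPM or more in every library. The muscle regulators Ankrd1, Hopx and Smyd1 headed the list, at 721 ± 75.6, 378 ± 27.3 and 239 ± 23.2 TPM. Gata4 made up 61.5% ± 1.43 and Gata6 29.9% ± 0.896 of GATA factor TPM, and Mef2a, Mef2c and Mef2d 41.3% ± 1.28, 32.3% ± 1.70 and 25.6% ± 0.942 of the MEF2 family. The homeobox factor Nkx2-5 was at 125 ± 18.4 TPM. Gata4, at 266, 278, 273, 251 and 279 CPM, varied by only 4.38%.

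Factors that mark the chambers were found in mixed proportions. Hand1, which in the mouse is confined mainly to the left ventricle and outflow tract, was at 22.6, 33.5, 33.95, 28.1 and 35.6 CPM, and Hand2, the factor more typical of the right ventricle, was the more abundant in all 5 libraries, 2.28 ± 0.468-fold per length. Irx4, a ventricular homeobox factor, held 57.4% ± 4.54 of the Iroquois family. Hey2, the repressor of atrial genes in compact myocardium, was 84.2% ± 2.49 of the HEY repressors at 129, 130.4, 120.3, 151 and 133 CPM. Tbx20 was the largest T-box gene in each library (43.7% ± 4.78), followed by Tbx5 (23.8% ± 5.13) and the epicardial Tbx18 (18.4% ± 2.53), of which Tbx5 was above Tbx18 in 3 of 5 libraries. Isl1, a marker of cardiac progenitors and outflow, was nearly absent at 0.311 ± 0.254 TPM.

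Genes of the 2 layers of the ventricular wall were all detected. Each of the 7 compact layer genes and each of the 10 trabecular genes was at 1 TPM or more in all 5 libraries. The compact layer list summed to 679.7, 668, 567, 681 and 759 CPM in libraries 1 to 5. It was led by Nkx2-5, Hey2 and Tbx20, of which Nkx2-5 and Tbx20 are not confined to that layer. The growth-promoting Mycn was at 59.3, 62.6, 57.5, 60.5 and 62.4 CPM. The trabecular list, of which Nppa supplied the greater part, summed to 2475, 2183, 2514, 1924 and 3293 CPM. The 2 sums describe these lists and do not measure the layers. The trabecular sum varied more, with a CV of 20.8% against 10.2%, and was highest in library 5. Its member Cited1, a transcriptional coactivator, was at 205, 229.5, 239, 209 and 347 CPM, with libraries 1 to 4 close together and library 5 above them.

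Genes typical of the atrium were also expressed. All 13 were at 1 TPM or more in every library, and they summed to 5664, 5366, 7097, 4492 and 6172 CPM, but Nppa, Myl4 and Myl7, which the embryonic ventricle also makes, supplied most of this. The more restricted members were low: Stard10 was at 27.9, 29.7, 28.5, 13.9 and 25.1 CPM, Nr2f2, the regulator of atrial identity, at 24.9, 27.1, 28.9, 16.8 and 29.3 CPM and Sln at 13.97, 10.5, 10.7, 3.43 and 9.70 CPM. All 3 were lowest in library 4. Of the list of the sinus node and atrioventricular canal, 7 of 9 genes reached 1 TPM in all libraries and the sum was 206, 222, 223, 136 and 188 CPM. Shox2, a factor of the sinus venosus, was at 4.87, 8.85, 12.4, 0.343 and 4.79 CPM and Tbx3 of the conduction system at 11.6, 15.6, 14.5, 4.51 and 10.4 CPM. Library 4 was again the lowest for both, and Shox2 fell there to 7 counts.

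**Figure D3:**
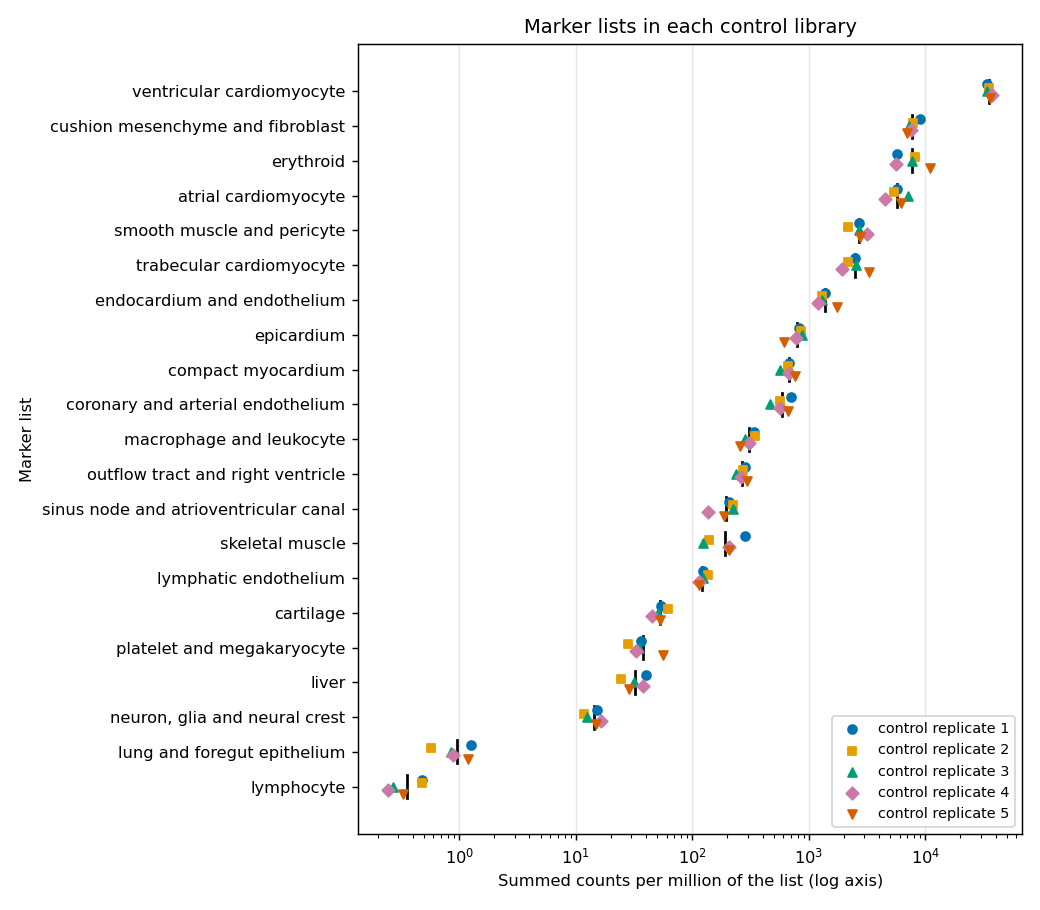
Summed CPM of 21 marker lists (vertical axis, in order of the mean) in each control library; each symbol is 1 library, the black bar is the mean of the 5, and the CPM axis is logarithmic. The lists span more than 4 powers of 10, from the ventricular markers down to lymphocyte genes, and sums of different lists depend on how many and which genes each holds.

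Markers of the nonmuscle cells of the wall were detected in every library. All 20 endocardial and endothelial genes were at 1 TPM or more in every library. Their sum was 1385, 1298, 1289, 1193 and 1751 CPM. Ramp2, a receptor partner in vessels, led at 94.5 ± 20.98 TPM, with the TGF-beta coreceptor Eng at 92.4 ± 20.7 and Egfl7 at 90.03 ± 7.15, while the adhesion genes Cdh5 and Pecam1 stood at 82.9 ± 12.55 and 72.7 ± 10.4 TPM. Npr3, a natriuretic peptide receptor of the endocardium, was at 92.4, 79.7, 84.05, 82.2 and 131 CPM. The sum of the list was highest in library 5 and lowest in library 4. The list of coronary and arterial vessels, which shares Cldn5 with it, summed to 709, 564, 467, 561 and 659 CPM, with library 3 lowest.

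Epicardial genes were also detected, with 16 of 17 at 1 TPM or more in all libraries and a sum of 820.0, 855, 881, 778 and 617 CPM. Krt19, a keratin, led at 125 ± 6.78 TPM, followed by the uroplakin Upk3b at 77.5 ± 20.4 and the progenitor factor Tcf21 at 51.1 ± 4.86. Wt1, a defining factor of this layer, was at 37.04, 38.3, 38.03, 38.3 and 27.4 CPM, that is, within a narrow range in libraries 1 to 4 and lower in library 5. Upk3b, at 123, 154, 170.4, 113 and 80.6 CPM, was lowest in the same library.

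The mesenchymal list summed to 8912, 7904, 7171, 7496 and 6895 CPM, with all 21 genes at 1 TPM or more. Sparc, a matrix glycoprotein, was at 1197 ± 112 TPM, the fibrillar collagen Col3a1 at 550.3 ± 116 and the secreted Fstl1 at 489.8 ± 42.98, though Sparc and Fstl1 are also made by other cells of the wall. Postn, a matricellular protein of cushions and fibroblasts, was at 635, 397, 410.5, 388 and 334 CPM and Col1a1 at 761, 695, 432, 564 and 464 CPM. Both were highest in library 1. Of the mural cell list, 10 of 11 genes reached 1 TPM, but its leading genes Acta2, Des and Cnn1 are also made by embryonic cardiomyocytes. The more specific Rgs5 and Myh11 were at only 1.82 ± 0.476 and 1.04 ± 1.21 TPM. Myh11 was uneven, with 0.0143, 0.0260, 0.0892, 0.00205 and 0.0128 percent of striated and smooth muscle heavy chain TPM in libraries 1 to 5.

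Markers of leukocytes were found throughout. All 17 macrophage and leukocyte genes reached 1 TPM in every library, with a sum of 341, 345, 284, 306 and 258 CPM. The lysozyme gene Lyz2 led at 99.1 ± 16.6 TPM, with the complement genes C1qb and C1qc at 41.7 ± 8.62 and 41.1 ± 6.34 and the colony-stimulating factor receptor Csf1r at 21.3 ± 5.14. Lymphocyte genes were at or near 0: none of 6 reached 1 TPM, and the 6 together summed to 0.245 to 0.479 CPM. Platelet genes were low, with Pf4 at 22.4 ± 4.71 TPM, and Itga2b, at 6.12, 4.93, 8.75, 3.92 and 15.96 CPM, highest in library 5.

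Red cell RNA was abundant and uneven. The 11 globin genes took 0.591% to 1.19% of counts. Hbb-y was at 3471, 4896, 5536, 3199 and 7768 CPM in libraries 1 to 5, lowest in library 4 and highest in library 5. The embryonic alpha-type Hba-x, at 330.0, 578, 775, 323 and 1019 CPM, had the same order of libraries, and the early embryonic Hbb-bh1, at 29.5, 83.5, 112, 41.8 and 127 CPM, differed from it only in libraries 1 and 4. The adult-type globins did not share that order. Hba-a1 and Hba-a2, which had identical counts and cannot be told apart, were each at 302, 833, 328, 600.2 and 473 CPM, highest in library 2, and the beta-type Beta-s was at 978, 787, 734, 529 and 1344 CPM, highest in library 5. The ratio of Hba-a1 alone to Hba-x in TPM was 1.05, 1.65, 0.485, 2.13 and 0.532, above 1 in 3 libraries and below it in the others. That split depends on taking 1 of the 2 identical adult-type genes. Of alpha-type globin TPM, Hba-x held 29.6, 21.1, 47.6, 17.2 and 45.3 percent in libraries 1 to 5. Hba-a1 and Hba-a2 held nearly all the rest, so with both taken Hba-x was the smaller part in every library. Red cell genes other than globins were present too, with Alas2, the first enzyme of erythroid haem synthesis, at 81.9, 77.01, 74.4, 46.7 and 133 CPM and the membrane anion exchanger Slc4a1 at 47.1, 74.7, 83.5, 36.7 and 83.7 CPM.

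Markers of tissues that border the heart were low. None of the 8 genes of lung and foregut epithelium reached 1 TPM in all libraries and their sum was 0.574 to 1.25 CPM, with Nkx2-1 at 0.139 ± 0.0969 and Sftpc at 0.193 ± 0.247 TPM. Of the skeletal muscle list, 2 of 9 genes reached 1 TPM in all libraries and the sum was 281, 139, 124, 205 and 207 CPM, nearly all of it from Ckm, which cardiomyocytes also make. Of the determination factors of that lineage, Myf5 had no count, and Myod1 and Myf6 were at 0.0785 ± 0.0886 and 0.0908 ± 0.0656 TPM. Liver genes were low but not even. Their list summed to 40.1, 24.2, 31.5, 37.8 and 28.6 CPM, highest in library 1. Its smaller part came from Afp, at 3.54, 0.287, 1.08, 4.56 and 0.982 CPM, and Alb, at 1.94, 0.431, 0.493, 3.09 and 1.06 CPM. Both were highest in library 4 and next in library 1. Neural genes reached 1 TPM in all libraries for 2 of 11 members, with Tubb3 at 4.52 ± 1.19 TPM.

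Ligands and receptors of the main signalling pathways differed widely in level. In the neuregulin pathway, by which endocardium supports trabecular growth, the ligand Nrg1 was at 1.38, 1.15, 1.21, 2.40 and 1.35 CPM, a mean of 0.407 TPM. Its receptors were Erbb2 at 66.3 ± 9.17, Erbb4 at 1.78 ± 0.303 and Erbb3 at 2.33 ± 0.495 TPM, so the coreceptor that binds no ligand was 37.9 ± 7.11-fold above its ligand-binding partner. In the Notch pathway, 18 of 19 genes reached 1 TPM in all libraries. The ligands Dll4 and Jag1 were at 10.2 ± 2.30 and 6.35 ± 0.936 TPM, and Notch1 led the receptors with 33.1% ± 3.87 of their TPM.

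Among BMP ligands, Bmp7 held 50.1% ± 3.51 and Bmp4 22.5% ± 4.62. Bmp10, the ligand of trabecular muscle, was at 12.8, 15.1, 20.1, 16.2 and 31.5 CPM, highest in library 5, and Bmp2, a signal of the atrioventricular canal, at 12.4, 11.4, 9.69, 4.51 and 9.86 CPM, lowest in library 4. The receptor Bmpr1a was at 66.6 ± 5.59 TPM and the targets Id3 and Id2 at 164 ± 23.7 and 85.1 ± 15.5. For FGF, the receptors were mainly Fgfr1 (62.6% ± 3.36), and the epicardial and endocardial ligand Fgf9 was at 3.55 ± 0.924 TPM. Vegfb supplied 65.5% ± 2.85 and Vegfa 23.3% ± 2.74 of VEGF ligand TPM. Aldh1a2, the retinoic acid synthesising enzyme of the epicardium, was at 47.7, 49.8, 37.1, 32.6 and 31.7 CPM, and the receptor Rxra at 29.8 ± 3.63 TPM. The BMP, FGF receptor and VEGF families were thus each led by 1 member.

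Imprinted genes, which are expressed from 1 parental copy, followed. The 32 imprinted genes in the table held 2.48% to 2.69% of counts. H19 and Igf2 supplied most of this, followed per length by Mest at 1463 ± 354 TPM, the growth factor adapter Grb10 at 801 ± 50.9 and the cell cycle inhibitor Cdkn1c at 704 ± 91.8. Mest was at 1764, 1648, 1698, 1698 and 2657 CPM, with library 5 above the other 4. Igf2r, which clears IGF2, was at 867, 926, 829, 952 and 1273 CPM, also highest in library 5. Of long noncoding RNAs other than H19, the snoRNA hosts Gas5 and Snhg1 were highest, at 398 ± 82.3 and 137 ± 23.1 TPM. Gas5, at 168, 176, 177, 174 and 98.1 CPM, was lowest in library 5.

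Xist, the noncoding RNA that coats the inactive X chromosome of female cells, was at 0.690, 364, 1.08, 473 and 313 CPM. The libraries fell into 2 levels, with libraries 2, 4 and 5 above 300 CPM and libraries 1 and 3 near 1 CPM. Tsix, which overlaps it on the opposite strand and cannot be told apart from it with an unstranded kit, was at 0.172, 28.4, 0.314, 29.1 and 12.1 CPM and followed the same division. The 9 listed genes of the Y chromosome had no count in any library, those with little Xist included, and the labels used here give no sex.

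The spread among libraries was small for most genes. Among 9894 genes of 10 CPM or more, the median CV was 8.45%, with quartiles of 5.95% and 11.9%, against a median of 3.23% from counting alone. The CV was at or below the counting level for 5.06% of these genes and at 50% or more for 14 of them. The common biological coefficient of variation, the spread beyond counting estimated by edgeR from 13747 genes, was 0.119. Without library 5 it was 0.102 and the median CV 6.74%. Of the 9894 genes, 694 (7.01%) had 1 library far from the other 4, and for 441 of these it was library 5. As a check for a library deposited again under another name, the chi-square per degree of freedom was computed between pairs of libraries and ran from 10.5 to 33.6, so all 5 were counted as separate.

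**Figure D4:**
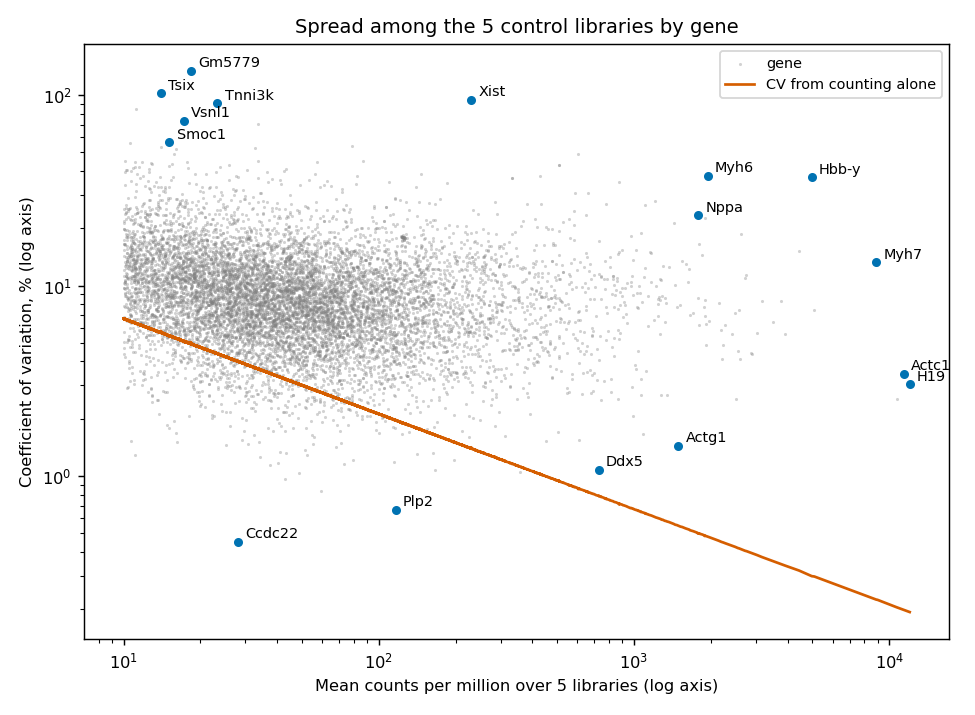
Coefficient of variation among the 5 control libraries (percent, log axis) against mean CPM (log axis) for 9894 genes of 10 CPM or more; grey points are genes, blue points named genes, and the line is the CV expected from counting alone. Xist, Tsix, Gm5779 and Tnni3k lie highest, and Myh6 and Hbb-y stand out among the abundant genes, well above Actc1 and H19.

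Several of the steadiest genes had spreads below counting error. Ccdc22 was at 28.3, 28.05, 28.03, 27.96 and 28.1 CPM, a CV of 0.453%. The membrane protein gene Plp2 was at 117, 115, 117, 117 and 116 CPM, a CV of 0.668% where counting alone gives 1.96%. Others of the 10 lowest CVs were Bop1, Aldh3a2, Tab1, the RNA-binding genes Ewsr1 and Ddx5, the cortical actin regulator Cttn, Slc39a13 and Fads1. Having been picked as the lowest of 9894, several of these CVs lie below what counting alone would give on average.

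The most variable genes followed several different patterns of libraries. Beyond Xist and Tsix, they included Tnni3k, a cardiac kinase, at 15.7, 14.6, 60.9, 15.1 and 10.3 CPM, and Hsd3b6, a steroid enzyme, at 8.02, 6.89, 27.8, 4.86 and 8.18 CPM. Both were high in library 3 alone. Vsnl1, a calcium sensor of the sinus node and atrium, was at 15.4, 23.7, 34.4, 0.736 and 11.9 CPM and Mybphl, an atrial myosin binding protein, at 13.6, 15.03, 25.4, 4.76 and 11.54 CPM, both lowest in library 4 and highest in library 3. Smoc1, a matrix calcium-binding protein, was at 11.6, 11.7, 11.1, 10.8 and 30.4 CPM and the collagen Col23a1 at 23.6, 25.2, 28.6, 22.7 and 63.4 CPM, both high in library 5 alone. The nucleotide hydrolase Hddc3, at 7.93, 49.8, 57.4, 8.68 and 44.02 CPM, was high in libraries 2, 3 and 5, and the predicted gene Gm5779, at 0.388, 0.479, 43.6, 46.9 and 0.491 CPM, in libraries 3 and 4. The remaining members of the top 15 were Gm10664, the protease gene Pcsk6, the phosphoinositide-binding Wdfy1 and the globins Hbb-bh1 and Hba-x.

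In library 4 genes of the inflow region were low, and so were several other lists. Of the atrial list, 12 of 13 genes had their lowest value of the 5 libraries there, and of the sinus node and canal list 7 of 8, where 21.8% of all 13430 genes of 1 CPM or more did. The median member lay -0.39 and -0.98 from its mean over libraries on the log2(CPM + 0.5) scale. Cacna2d2, a calcium channel subunit of that second list, was at 53.1, 72.9, 79.2, 24.1 and 51.7 CPM and Hcn4 at 14.96, 26.996, 23.1, 7.90 and 16.7 CPM. In the same library, the ratio of Myl2 to Myl7 in TPM was 7.37, against 2.78 to 3.81 in the others, and that of Myh7 to Myh6 was 8.48, against 2.60 to 5.84. The part of the inflow genes in these isoform ratios was not tested. Also lowest in library 4 were 6 of 12 erythroid genes, 11 of 20 endothelial genes, 13 of 27 genes of the BMP pathway and 10 of 21 interferon-induced genes, with median deviations of -0.60, -0.15, -0.16 and -0.23.

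In library 5 most trabecular, Iroquois and endothelial genes were high and most epicardial genes low. Most red cell and platelet genes were also high there, but leukocyte genes were not. Of the trabecular list 7 of 10 genes, of the Iroquois family 5 of 6 and of the endothelial list 13 of 20 were highest there, against 30.2% of all genes. The trabecular list did not move as a whole, since 2 of its 10 genes were lowest there. Irx3, which acts in the trabecular conduction system, was at 8.75, 9.33, 7.71, 9.37 and 18.2 CPM and Irx4 at 50.3, 53.2, 51.6, 52.5 and 77.8 CPM. The median deviations were 0.49, 0.70 and 0.31. All of the platelet genes of 1 CPM or more (5 of 5), 7 of 12 erythroid genes and 13 of 21 immediate early genes were also highest there, with median deviations of 0.50, 0.43 and 0.19. The part of the red cell and platelet genes in the other differences of this library was not tested. In contrast, 14 of 16 epicardial genes were lowest there, against 27.4% of all genes, with a median deviation of -0.36. Of the macrophage and leukocyte list, 7 of 17 genes were lowest there and 1 was highest, with a median deviation of -0.10.

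The same library had the lowest value for 68 of 82 ribosomal protein genes and 49 of 76 genes of oxidative phosphorylation. Both groups consist largely of short transcripts, and the tenth of genes with the shortest exons, up to 1384 bases, had a median deviation of -0.09 in library 5 against 0.09 in library 3, where the tenth with the longest, from 7431 bases, had -0.11. The part of transcript length in these differences was not tested. Library 3 in turn had the highest value for 52 of 76 genes of oxidative phosphorylation and 20 of 40 cell cycle genes, where 19.3% of all genes were highest, and the lowest for 9 of 10 genes of coronary and arterial vessels, where 25.1% of all genes were lowest. Of the same 40 cell cycle genes, 24 were lowest in library 5, where 27.4% of all genes were, with a median deviation of -0.07.

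**Figure D5:**
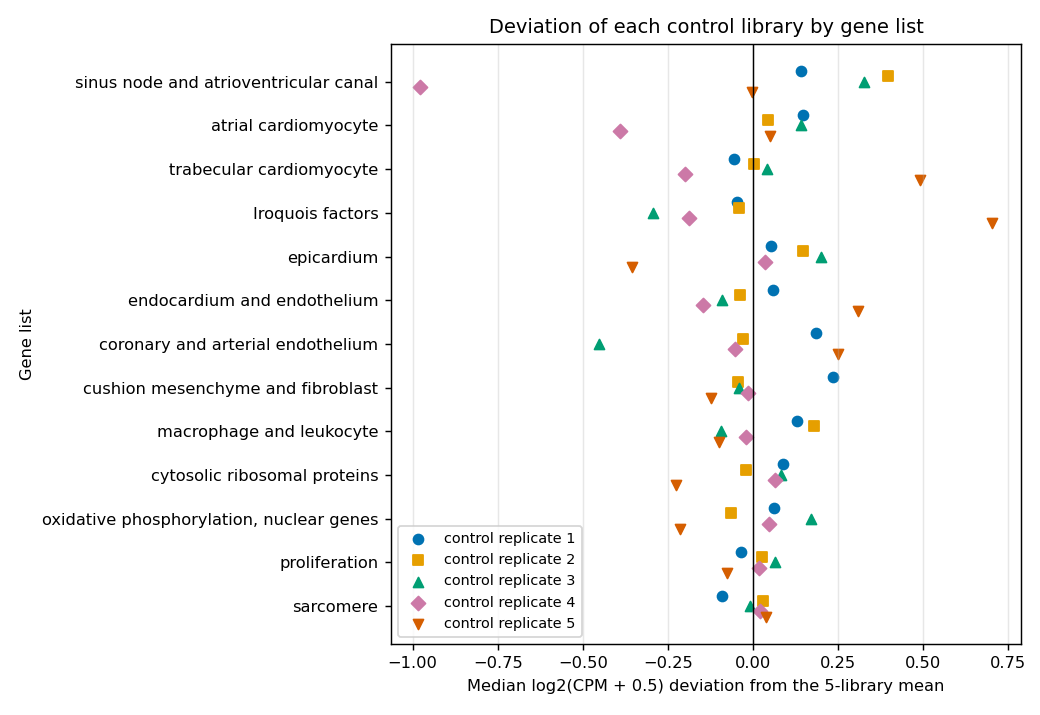
Median deviation of the members of 13 gene lists in each control library, as log2(CPM + 0.5) minus the mean of the gene over the 5 libraries (horizontal axis; 0 is the mean), for members of 1 CPM or more; each symbol is 1 library. Library 4 lies far to the left for genes of the sinus node and atrium, and library 5 to the right for trabecular and Iroquois genes and to the left for epicardium.

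Library 1 differed in its mesenchyme. Of the 21 mesenchymal genes 10 were highest there, where 17.8% of all genes were, with a median deviation of 0.24. It also had the lowest value for 19 of 46 sarcomere genes, where 13.2% of all genes were lowest. Fabp4 and Ckm were also highest in this library. Library 2 had the lowest Acta2 and the highest adult alpha globin. Of the 13 lists plotted, its median deviation was farthest from 0 for sinus node and canal, at 0.40. Macrophage and leukocyte genes came next, at 0.18, and then epicardium, at 0.15. Lists that share genes, such as Nppa and Bmp10 in the trabecular and atrial lists, Hcn4 in the trabecular and sinus node lists and Tbx18 in the sinus node and epicardial lists, are not independent of each other.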

How the data were processed

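RNA of the left ventricle of control embryos was analysed in 5 libraries. The authors deposited raw counts of reads per gene symbol. Per the submitters' processing notes, TopHat2 2.1.1, featureCounts, R 3.3.2, edgeR 3.16.5, limma 3.30.13 and the build mm10 were used, with no role given. Per the labels' protocols the libraries were unstranded (TruSeq RNA v2), so overlapping antisense genes share reads. The 2 mutant libraries and a second deposited table were not used. No column was left without a sample.

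CPM (counts-per-million) was computed from each library's total. TPM used merged exon lengths of GENCODE M21 basic annotation, matched by symbol for 20929 genes and by synonym for 1890. A further 518 symbols without a length took 0.990% to 1.11% of counts and have no TPM, and genes with merged exons under 200 bases were left out of TPM, a limit chosen after seeing the data. The dispersion was estimated with edgeR 4.0.16 (TMM factors, filterByExpr with a minimum count of 10 and a minimum total of 15) and, as an alternative, DESeq2 1.42.0, in R 4.3.3. The dispersion step was tested on simulated data. Deviations used log2 values computed from the deposited counts as log2(CPM + 0.5), each minus the gene's mean over the 5 libraries. Other tables were computed with Python 3.11.15 and pandas 2.3.3.

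With 1 group there was no test and no adjusted p. Values are means ± SD over the 5 libraries, of 20385656 to 24440806 counts each, and counting error alone gives a CV of 3.23% for the median gene of 10 CPM or more. The members and lists were chosen with earlier results of these data known. Genes were named by a rule: the 6 markers, the 20 highest in TPM and 10 highest in CPM, the family members holding 1% or more, the leading members and near-absent defining markers of each list, the 15 most and 10 least variable genes of 10 CPM or more, Xist, and genes with 1 library far from the rest. Further members of the lists were named after their values were seen. Alternatives were other scalings (TMM, DESeq2 size factors), haemoglobin genes removed, other gene lengths, other thresholds and filters, and each library left out in turn. Kept genes under 200 bases and library totals in place of TMM were added after seeing the data.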

Additional observations from a re-analysis of the deposited data

Results flagged for a closer look

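Among the 285 genes named by rule, 24 had 1 library far from the other 4: its gap to the nearest other library, divided by the range of all 5, was above Dixon's 95% value for 5 samples. Chance flags about 1 in 20 such groups (5%), and 7.01% of all 9894 genes of 10 CPM or more did the same, but the named genes include the most variable ones, so their count is a description only. The far library was library 5 for 17 of the 24 genes, library 3 for 4 and library 1 for 3. Over all 694 such genes of 10 CPM or more it was library 5 for 441.

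For the genes highest in library 5, the ratios of gap to range were 0.955 for Smoc1, 0.906 for the growth factor Hbegf, 0.895 for Irx4, 0.885 for Mest, 0.855 for Col23a1, 0.842 for Irx3, 0.759 for Cited1 and 0.723 for Igf2r. Hbegf was at 12.55, 12.49, 12.2, 12.7 and 17.5 CPM. The sarcomere crosslinker Actn2 (0.763), the arterial connexin Gja4 (0.770) and the endothelial receptor Tie1 (0.731) were also highest there, with Actn2 at 1200.0, 1247, 1268, 1233 and 1485 and Tie1 at 113, 108, 115, 91.3 and 180.1 CPM.

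Lowest in library 5 were Wt1 (0.885), Gas5 (0.877), the predicted gene Gm15772 (0.776), Cox7a2 (0.727), Rpl23a (0.723) and Bop1 (0.723). Cox7a2 was at 533, 488, 542, 499 and 346 CPM and Rpl23a at 1188, 1105, 1166, 1145 and 889 CPM. Bop1 is among the steadiest genes, and its values of 59.5, 59.7, 59.7, 59.8 and 58.6 CPM all lie close together.

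In library 3, Tnni3k (0.894), Cox8a (0.877), Hsd3b6 (0.855) and Myl4 (0.783) were highest, with Myl4 at 2346, 2553, 3485, 2294 and 2470.5 CPM. In library 1, the glucose transporter Slc2a3 (0.804), Postn (0.744) and C1qb (0.735) were highest, with C1qb at 28.7, 20.7, 17.9, 20.7 and 17.8 CPM.

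Of 90 gene lists, 7 had 1 library far from the rest in their summed CPM. Among single genes of 10 CPM or more, 7.01% did so, and this count of lists is a description only. Some of the lists hold genes already flagged singly, such as Actn2, Cox8a, Irx3 and Irx4. The ratios were 0.808 for Iroquois factors, 0.797 for immediate early genes, 0.773 for cytochrome c oxidase subunits 6a, 0.765 for cardiac transcription factors, 0.739 for cytochrome c oxidase subunits 8, 0.732 for alpha-actinins and 0.718 for platelet genes. The sum was 91.7, 95.4, 81.9, 89.9 and 152 CPM for Iroquois factors, 5569, 5645, 5503, 5545 and 6110.0 CPM for cardiac transcription factors and 35.9, 28.1, 34.6, 32.8 and 55.8 CPM for platelet genes, each highest in library 5. The 2 lists of cytochrome oxidase subunits were highest in library 3, at 432, 429.9, 524, 451 and 438 CPM and 399.7, 380.0, 455, 399.7 and 385 CPM.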

How the results depend on the processing

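Of 340 alternative values for 40 results, 325 moved by less than the spread between libraries (for counts, by less than 1.5 times) and 15 moved further. Many of the 325 could not have moved further. A mean over 5 libraries cannot shift by its SD when 1 library is left out. Scaling factors and the removal of haemoglobin genes cancel in the shares of the families listed here. The count of 325 is therefore no measure of robustness. Most of the latter came from the gene length: with the longest transcript as the length, Myl2 held 73.9% of regulatory light chains, and without length scaling 73.5%, while Actc1 then held 74.7% of actins. Without length scaling 9 of the 20 most abundant genes were shared with the TPM ranking. Leaving out each library in turn moved the common biological coefficient of variation between 0.102 and 0.129 and the median CV between 6.74% and 8.82%, the lowest of both being without library 5. The other values that moved were the globin share, which is 0% by construction when haemoglobin genes are removed, and the shares of Tnni1, Atp2a2, Ldha, Gata4 and Tbx20 in their families under other lengths. No paired analysis was possible because only 1 group was used. The 5 libraries of 1 age, with the Cre allele and tamoxifen in each, give no test of a difference, and a gene at 1 CPM rests on about 20 counts.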

Other observations

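Several gene groups not described above were also present. The 11 genes of the insulin-like growth factor axis summed to 6713, 7890.2, 6968, 6606 and 8055 CPM, with 10 of 11 at 1 TPM or more in every library. Of the lymphatic list, 5 of 6 genes did so, with Pdpn, a mucin-type protein also made by epicardium, at 33.3 ± 5.09 TPM, the hyaluronan receptor Lyve1 at 12.2 ± 3.02 and Prox1, a regulator of lymphatic identity also found in cardiomyocytes, at 10.6 ± 1.59. Of genes induced by low oxygen, 17 of 17 were at 1 TPM or more, led by the cytokine Mif at 2366 ± 137 TPM and the mitophagy gene Bnip3 at 328 ± 46.2. Of 22 interferon-induced genes, 19 reached that level, led by Ifitm2 at 339.6 ± 11.01 and the class I light chain B2m at 332 ± 36.1 TPM. Immediate early genes, which rise quickly after handling or stimulation, were led by Jund at 171 ± 20.7 TPM and summed to 630.4, 659.5, 629, 644 and 779 CPM, highest in library 5.

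Outflow tract and right ventricle genes summed to 283, 269.8, 235, 262 and 297 CPM, with 6 of 9 at 1 TPM or more. The chemokine Cxcl12 was at 35.3 ± 7.80 TPM and Sema3c, an outflow guidance cue, at 9.96 ± 0.624. Cartilage genes reached 1 TPM for 2 of 5 members, Col9a2 at 17.6 ± 2.13 and Col2a1 at 11.4 ± 2.84 TPM, and Acan, which defines cartilage, was near 0 at 0.0948 ± 0.0654.

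Some genes had 2 separate levels among the 5 libraries. By a criterion chosen after seeing the data (a gap of at least 1 on the log2 scale that is also at least 2 times the wider group's own range), 50 of 13430 genes qualified, of which 29 had 1 library apart and 21 divided the libraries into 2 and 3. Of the 29, 13 were low in library 4 alone, among them the inflow and atrial genes Vsnl1, Shox2, Bmp2 and Sln, and the retinoid-binding gene Crabp1 at 4.57, 6.89, 6.28, 1.81 and 5.69 CPM.

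The divisions into 2 and 3 did not share 1 pattern. The predicted gene Gm5779 was high in libraries 3 and 4. Lrat (chromosome 3, 82892579 to 82903973), at 10.6, 0.335, 0.314, 0.491 and 5.93 CPM, and Glrb (chromosome 3, 80843599 to 80913660), at 12.1, 3.49, 4.17, 2.80 and 15.7 CPM, lie on the same chromosome and were both high in libraries 1 and 5. Hddc3, Jmjd7 and the adjacent genes 2610305D13Rik (chromosome 4, 147611937 to 147642513) and Gm13154 (chromosome 4, 147553277 to 147585198) were high in libraries 2, 3 and 5. Jmjd7 was at 2.93, 11.8, 11.48, 3.48 and 7.94 CPM. Wdfy1 (chromosome 1, 79702262 to 79776143) was at 7.16, 6.89, 19.3, 22.5 and 24.1 CPM, high in libraries 3, 4 and 5. Padi4, at 4.01, 0.574, 0.179, 3.38 and 0.655 CPM, was high in libraries 1 and 4, and the collagen Col6a6, at 25.3, 18.9, 8.84, 18.7 and 6.79 CPM, in libraries 1, 2 and 4. The labels give no strain or litter of these embryos, and the source of these divisions was not tested.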
